A study of Mus musculus with 4 samples.

Results

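The transcripts described here are 5 of the noncoding hosts of small nucleolar RNAs (snoRNAs) that 2 mouse array types carry: Gas5, Snhg1, Snhg6, Snhg9 and Snhg11. They were taken as every probe set whose single gene symbol in the platform annotation is one of these 5 names. This gave 5 genes of 6137 named on the arrays, read by 6 probe sets of 13057 after removal of controls, 3 on each array type. The RNA came from a stable NIH3T3 line, mouse embryonic fibroblasts that grow indefinitely in culture, with wild-type PKR behind a promoter that tetracycline represses. In 1 condition the cells were kept in DMEM with 5% FCS and 1 µg/ml tetracycline, so that the transgene was off. In the other, tetracycline was left out for 5 h to switch PKR on, and no serum content is given. All 4 arrays carry RNA of the same transgenic line, and no line without the transgene is among them. Each condition has 1 array of a first type and 1 of a second type marked MB, with different probe sets, so there are no replicates and no difference below has a test or a replicate error. The 5 transcripts were chosen by their names with the withdrawn over tetracycline intensities of these arrays known, so the values below are a description.

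A host gene is transcribed and spliced, and the snoRNAs are trimmed out of its introns; box C/D and box H/ACA snoRNAs then guide chemical modification of ribosomal and spliceosomal RNA. In protein-coding hosts the exons make an mRNA, often one for a ribosomal protein or translation factor. In the transcripts described here the exons hold no long reading frame, and the best studied of them, Gas5 and Snhg1, are known to be loaded with ribosomes and destroyed by nonsense-mediated decay, a pathway that needs ongoing translation. PKR is a kinase that phosphorylates the initiation factor eIF2 alpha and thereby slows translation, so the comparison addresses whether these transcripts differ in abundance once PKR is induced. The arrays measured transcript levels at a single time, so changes of synthesis and of decay cannot be told apart.

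The RefSeq gene table of GRCm38.p6 shows how differently the 5 hosts are built. Gas5, first isolated as a transcript of growth-arrested NIH3T3 cells, holds 8 annotated snoRNA genes within its span, among them Snord47, and has 8 annotated transcripts. Snhg1 also holds 8, among them Snord22. Snhg6 holds the single gene Snord87 and Snhg9 the single gene Snora78, while 2 unnamed snoRNA genes lie within Snhg11. The snoRNAs themselves are 60 to 157 bases long, and no probe set for one of them was analysed here. The hosts lie on chromosomes 1 (Gas5 and Snhg6), 2 (Snhg11), 17 (Snhg9) and 19 (Snhg1).

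The start of a host transcript matters because many snoRNA hosts, like ribosomal protein genes, are known to begin with a C and a run of pyrimidines (the terminal oligopyrimidine, or TOP, start). RefSeq promoter windows of 300 bases, 250 of them before the start, were given for 4 of the 5 genes, with 5 annotated starts. Shown are those of Snhg1, which had the largest change below, of Gas5 at its second annotated start, and of Snhg9, the exception among the hosts, each from 60 bases before the annotated start to 40 bases after it, 5′ to 3′ on the transcribed strand. Capitals mark the longest run of C and T that touches the 10 bases on either side of the start.
Snhg1, GRCm38.p6 chr19:8723427-8723526, + strand: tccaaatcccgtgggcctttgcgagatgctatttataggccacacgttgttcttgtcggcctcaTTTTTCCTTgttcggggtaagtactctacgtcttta
Gas5 start 2, GRCm38.p6 chr1:161035106-161035205, + strand: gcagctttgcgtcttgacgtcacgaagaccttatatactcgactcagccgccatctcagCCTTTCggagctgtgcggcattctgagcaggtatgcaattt
Snhg9, GRCm38.p6 chr17:24719926-24720025, - strand: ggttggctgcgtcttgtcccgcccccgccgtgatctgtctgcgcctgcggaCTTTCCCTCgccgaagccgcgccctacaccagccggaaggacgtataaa

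Of the 5 annotated starts, 1 is a C followed by at least 4 bases that are C or T, the second start of Gas5, against 2.51% of all 32851 promoter windows. In Snhg1 the run is 9 bases long and begins at base 5 of the annotated transcript. In Snhg9 it is also 9 bases long and begins 9 bases before the annotated start. At the first start of Gas5 and at that of Snhg11 no run exceeds 3 bases. The letters TATA, which read the same on both strands, lie between 40 and 20 bases before the start in Snhg1 and in the second start of Gas5, against 5.81% of all windows. In Snhg1 they begin 27 bases before the start. In Gas5 they occur in 2 overlapping copies, beginning 29 and 27 bases before it. In Snhg9 TATA begins at base 35 of the annotated transcript. The second Gas5 window also holds TGACGTCA, the cyclic AMP response element, beginning 46 bases before the start; on either strand 1.79% of all windows hold it. TGATGNAAN, the composite element read by ATF4, is in none of the 5 windows on either strand and in 3.95% of all. Both elements were sought over the whole 300 bases of each window, more than the stretch shown. Matches to different motifs do not overlap. The motifs other than the pyrimidine start were chosen after the sequences were read, so their shares of all windows do not measure how unusual a match is. A match is a description of letters and does not show a site in use.

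The deposited values of the 4 arrays had nearly the same overall level: the 2% trimmed mean of the intensities lay between 997 and 1000 on all of them. Whether they were scaled before deposit is not stated. Such scaling could set this equality, so it does not show that the raw signals were alike. As 3' to 5' control ratios, beta-actin gave 0.93 to 1.05 and Gapdh 0.71 to 0.83. All 12 fibroblast markers were measured, and their summed intensity after withdrawal was lower, with log2 ratios of -0.31 (first type) and -0.30 (MB type). In a bulk sample fewer cells of a type and less RNA per cell cannot be told apart. The single Eif2ak2 probe set, for mouse PKR, read 643.3 with tetracycline and 663.6 after withdrawal, and may not detect the transgene, whose species is not given. A probe set counted as measured when it exceeded the 25th percentile of its array type on both arrays (130 and 80.0). A stricter limit, called the control floor, was set by 39 controls for bacterial and yeast sequences, at their 95th percentile (281.5 for the first type, 340.4 for MB). All 6 host probe sets exceeded the control floor on both arrays of their type.

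Of the 6 probe sets, 5 read higher after withdrawal of tetracycline, by 1.52-fold to 3.05-fold, and 1 read slightly lower. By gene, 4 of 5 were higher, and the median log2 change of the 5 genes was 0.96, against -0.0037 over all 4507 measured genes. That median is the reading of Snhg11, the host closest to the control floor, and the measured genes beside it are of all levels. At least 2-fold higher was 1 of 3 probe sets on the first type, beside 4.36% of all measured there, and 1 of 3 on MB, beside 8.46%. Above the control floor these background shares were 1.88% and 1.97%. Past 1.5-fold were 2 of 3 and 3 of 3 host probe sets, beside 12.4% and 17.6% of all measured ones. By gene, 2 of the 5 hosts were past 2-fold upward and none downward, beside 5.26% and 4.22% of all measured genes. Because the members were chosen with these values known, no inference is drawn from the counts.

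**Figure D1:**
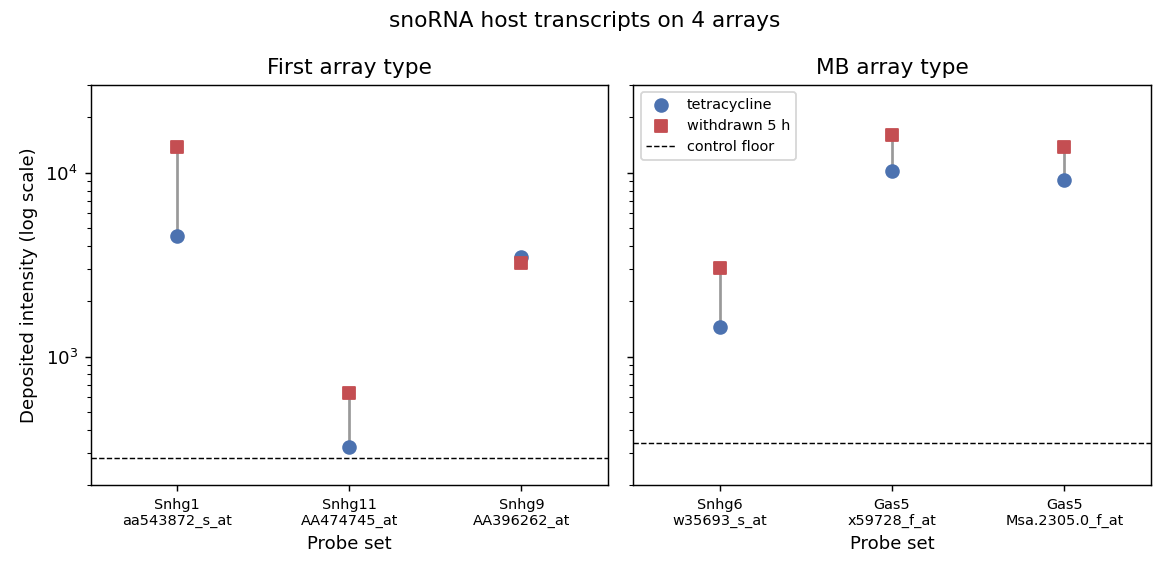
Deposited intensity (vertical log axis) of each host probe set (horizontal axis) with tetracycline (circles) and 5 h after withdrawal (squares), 1 array per symbol, by array type; the dashed line is the control floor. The squares lie above the circles for 5 of 6 probe sets, with the widest gap for Snhg1 (4515.8 to 13781.6), and Snhg11 lies nearest the floor.

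Snhg1 had the largest change of the group. This transcript, also known as the U22 host gene, releases Snord22 and other box C/D snoRNAs from its introns. Its probe set read 4515.8 with tetracycline and 13781.6 after withdrawal, a 3.05-fold difference and a log2 change of 1.61. For comparison, 200 probe sets of the most similar level on the same arrays had a median change of -0.086, and their changes had a robust SD of 0.31 (from the median absolute deviation). None of these 200 changed by as much in the upward direction, and none was 2-fold higher. That spread mixes measurement noise with true changes of other genes, so it does not stand in for replicates.

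Snhg6, the host of Snord87, was the other transcript past 2-fold. It read 1450.8 with tetracycline and 3044.7 after withdrawal on the MB type, 2.10-fold higher (log2 change 1.07). The 200 nearest probe sets had a median change of 0.018 and a robust SD of 0.32, and 1 of them had a larger change. Among the 2738 MB probe sets above the control floor its change ranked 37th from the top.

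Gas5 was seen by 2 probe sets on the MB type, both built on the same sequence record and both with the suffix that, in the Affymetrix scheme, marks probes shared within a family of similar sequences. They are therefore 2 readings of 1 RNA sample and no replicates. The brighter one read 10164.2 with tetracycline and 16093.8 after withdrawal, 1.58-fold higher. The other read 9080.7 and 13796.5, 1.52-fold higher. The log2 changes of 0.66 and 0.60 differed by 0.060. At this level the spread was narrower, with robust SDs of 0.25 and 0.24, and 2 and 5 of the 200 nearest probe sets had larger changes. Of those 5, 1 is the other Gas5 probe set, which leaves 4 from other genes. Their ranks among the probe sets above the control floor were 189 and 221.

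Snhg11 is a host transcript best known from neurons. Its probe set lay closest to the control floor and read 323.8 with tetracycline and 631.7 after withdrawal, 1.95-fold higher (log2 change 0.96). With tetracycline this was 1.15 times that floor. Changes at this level were wide, with a robust SD of 0.52, and 10 of the 200 nearest probe sets had larger ones. Of the 8 neuron markers on the arrays, only the growth cone gene Gap43 exceeded the control floor on both arrays of its type (334.5 and 487.9, log2 change 0.54). On the first type the summed intensity of the 5 neuron marker probe sets was 543.5 with tetracycline and 612.3 after withdrawal. On the MB type that of the 3 probe sets was 429.2 and 751.1. There Syp, a synaptic vesicle protein gene, read 74.4 and 378.3 (log2 change 2.35). Its tetracycline reading was under the main floor of 80.0. Tubb3 (0.30) and Map2 (0.29) were also higher, whereas Nefm (-1.81), Nefl (-1.19), Snap25 (-1.14) and Syt1 (-0.60) were lower. Only Gap43 and Tubb3 counted as measured, and both were higher. The lower markers did not count as measured, so their signs carry little weight. The part of these markers in the Snhg11 result was not tested.

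Snhg9, which gives rise to the H/ACA RNA Snora78, was the exception. It read 3472.6 with tetracycline and 3243.5 after withdrawal, a 1.07-fold lower value (log2 change -0.098). This lay inside the spread of its 200 neighbours, whose robust SD was 0.31, and 118 of them had a larger change. The annotated span of Snhg9 overlaps that of the ribosomal protein gene Rps2, which runs on the other strand. The strand that the Snhg9 probes read is not given in the sources used here.

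**Figure D2:**
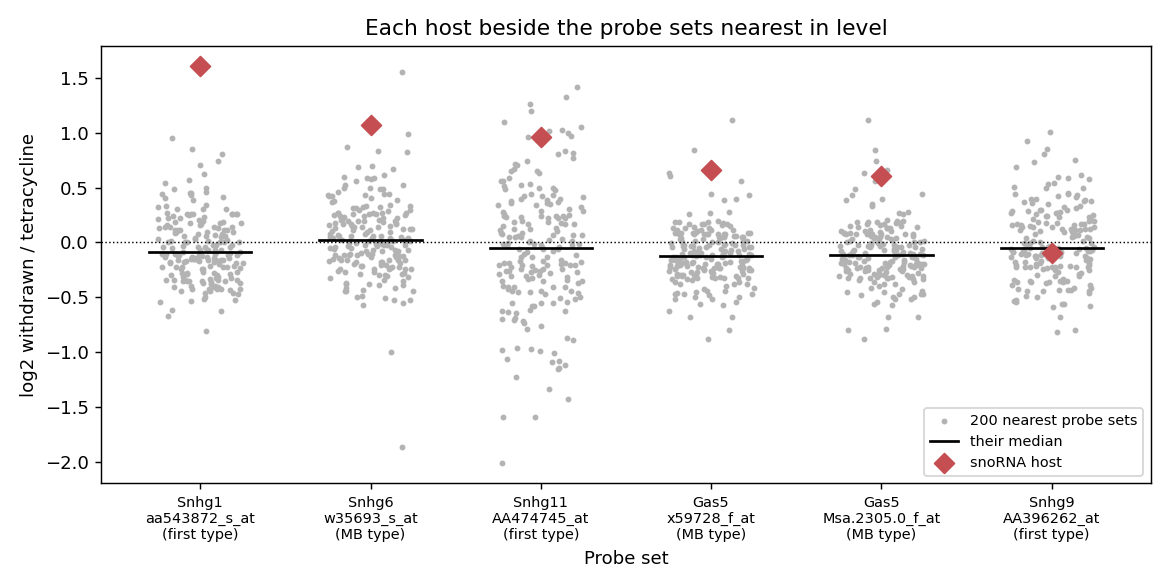
log2 of withdrawn over tetracycline intensity (vertical axis) for each host probe set (diamonds) beside the 200 probe sets nearest in mean level on the same array type (grey points, horizontal jitter only; bar, their median). Snhg1 lies above all of its neighbours, Snhg6 and Gas5 above all but 1 to 5, Snhg11 above all but 10, and Snhg9 within them.

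**Figure D3:**
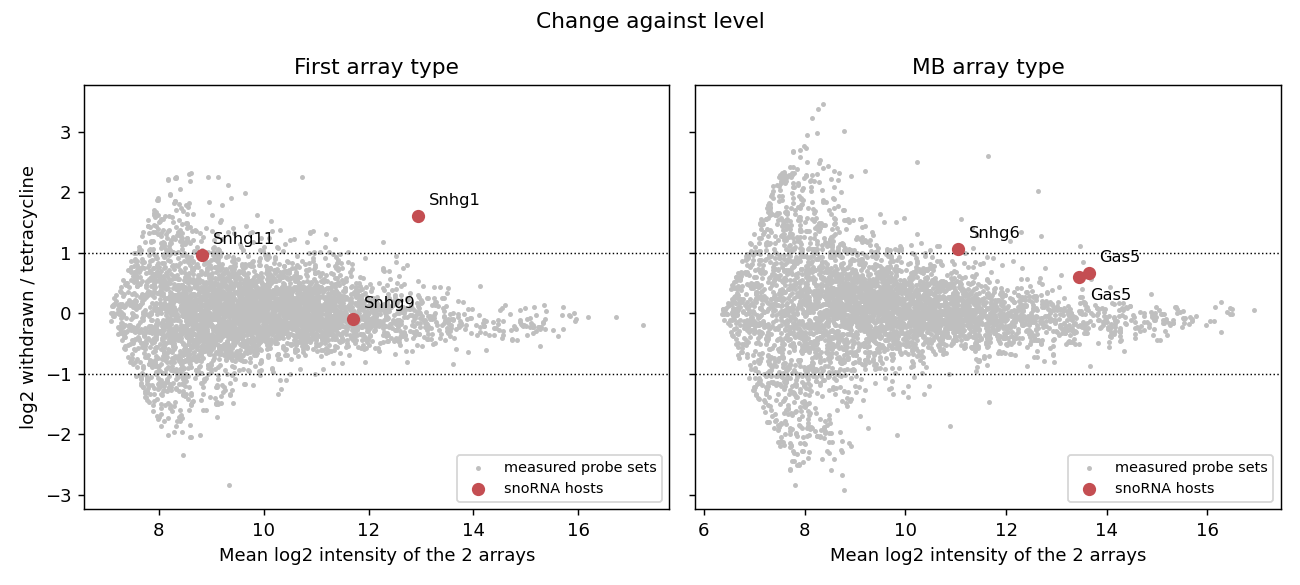
log2 change (vertical axis) against the mean log2 intensity of the 2 arrays (horizontal axis) for all probe sets above the main floor, by array type; dotted lines mark 2-fold. The spread narrows as level rises, so the Gas5 changes of 0.60 and 0.66 lie at the upper edge of the cloud, while the Snhg11 change of 0.96 lies within a wide one.

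The probe sets most like each host on its 2 arrays were found as the 3 nearest named ones in log2 intensity. For Snhg11 these were Birc3 (327 and 637.7), Azin1 and Atad2b, all within 0.060 log2 units. For Snhg6 they were Pim1 (1538.4 and 3184.3), Ets1 and Kdm1a, at 0.11 to 0.28. Gas5 lay near Saa3 (10802 and 15920.3, distance 0.089), then Cebpb and Psap. For Snhg9 the nearest were Farsb, Mvp and Ctbp1, with changes of -0.11 to -0.12. No probe set came close to Snhg1: the nearest, Brd2 (5180.9 and 9055.4), was 0.64 log2 units away, followed by Stat3 and Phlda1. Likeness over 2 arrays says only that the readings are close.

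Genes that adjoin a host in the genome were read where the arrays carried them. Slc3a2, the heavy chain of amino acid transporters, lies beside Snhg1 on the opposite strand, within 5 kb. Its 2 MB probe sets read 3328.2 and 6973.9 with tetracycline and 6044.4 and 10817.1 after withdrawal, log2 changes of 0.86 and 0.63, with a robust SD of 0.28 at both levels. Both were thus higher, as was Snhg1, on a different array type. Ndufb10, a subunit of respiratory complex I near Snhg9, was 0.70 higher (1050.1 to 1703.8, robust SD 0.37), whereas Snhg9 was not. Zbtb37, which overlaps Gas5 on the other strand, was below the control floor on both arrays.

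Other noncoding hosts were scarce on these arrays. Of 19 further ones listed, 1 had a named probe set, Epb41l4aos, which read 537.7 and 660 (log2 change 0.30). When hosts were taken from annotation alone, as noncoding genes whose span holds a snoRNA gene on either strand, 3 of 103 were measured: Epb41l4aos, AI506816 (-0.027) and Rab26os (-0.62). They went both ways, 1 higher and 2 lower. Among other noncoding RNAs, 3 of 16 were measured, with the paraspeckle RNA Neat1 at 0.074 (6924.4 and 7289.4). The 2 probe sets of H19, an imprinted RNA, disagreed in sign (0.88 and -0.48), as did the 2 of Pvt1 (-1.22 and 0.26), and the first of each pair was below the control floor on 1 array.

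Protein-coding hosts carry snoRNAs in their introns as well, and their mRNAs are translated. Of 43 listed, 29 were measured, and 9 were higher, 20 lower and none past 2-fold in either direction, with a median of -0.081. The count was 12 higher and 17 lower with quantile normalization and 13 and 16 with the level trend removed by loess. The largest changes above the control floor were those of the splicing factor gene Sf3b3 (-0.46), the nucleolin gene Ncl (-0.38), the ribosomal protein gene Rpl7a (-0.36) and the helicase gene Eif4a2 (0.29). The 13 ribosomal protein hosts had a median of -0.21, with 3 higher and 10 lower. With quantile normalization that median was -0.069 (4 higher, 9 lower) and with loess -0.079 (5 and 8). The other 16 had a median of -0.021, with 6 higher and 10 lower, but 8 and 8 under both of these scalings, and with loess the median turned to 0.019. Among these, Eef2, which encodes elongation factor 2, had readings of 1.63 on a probe set near the floor (143.6 and 444.5) and 0.098 on a bright one (40590.8 and 43450.6). Over all measured genes 49.6% were higher.

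Taken from annotation alone, 102 of 372 protein-coding genes whose span holds a snoRNA gene were measured. Of these 47 were higher and 55 lower, 2 in each direction past 2-fold, with a median of -0.017 that turned to 0.027 with loess (52 higher, 50 lower). The largest changes above the control floor were those of Ybx3 (-1.49), Sash1 (1.35), Wdr43 (0.83) and Mpdz (-0.81). With only snoRNA genes named Snord or Snora, which were chosen after the data were seen, 43 genes were measured, 17 higher and 26 lower, with a median of -0.040. With loess this median turned to 0.050 (22 higher, 21 lower), and with quantile normalization 21 were higher and 22 lower. Above the control floor Wdr43, 2410002F23Rik (0.81) and Rabggtb (0.60) were the highest of that list. The strand of the snoRNA genes is not in the table used, so a span may hold one by chance on the other strand.

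**Figure D4:**
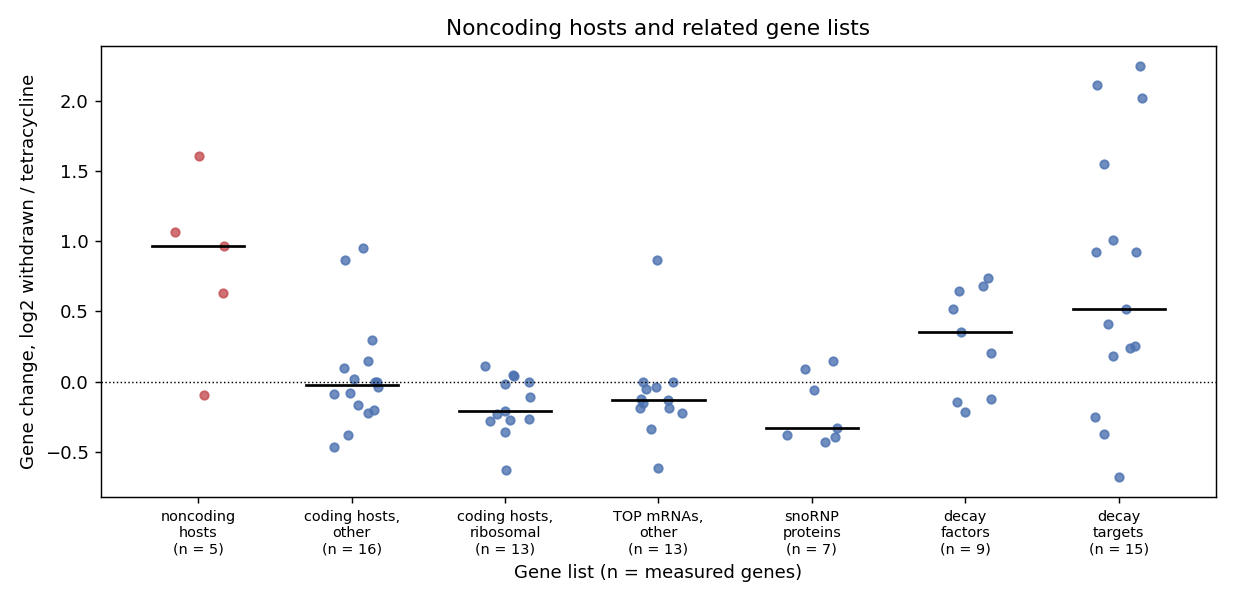
Change of each measured gene (vertical axis, log2 of withdrawn over tetracycline intensity, median over its probe sets) in the noncoding hosts and in 6 related lists (horizontal axis); bars are list medians. The group drawn as noncoding hosts holds only the 5 transcripts described here, with a median of 0.96, the value of Snhg11. The 3 other measured noncoding hosts taken from annotation are not drawn (median -0.027, 1 higher and 2 lower). The decay targets have a median of 0.52, the value of Smg5, which is drawn among the decay factors too. In these deposited values the ribosomal hosts, the TOP mRNAs and the snoRNP proteins lie mostly below 0. For the TOP mRNAs this was 7 of 13 genes with loess. The lists overlap further: Eef2, Eef1b2 and Tpt1 are drawn among the other coding hosts and the TOP mRNAs. Ncl and Nop56 are drawn among the other coding hosts and the snoRNP proteins, and Pabpc1 among the TOP mRNAs and the decay factors.

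The TOP mRNAs outside the ribosomal protein genes, which share a pyrimidine start with many hosts, had 13 measured members of 17 listed, with 1 higher, 12 lower and a median of -0.13. This lean depended on the scaling: with quantile normalization 5 were higher and 8 lower (median -0.041), and with loess 6 and 7 (median -0.022). In the deposited values the lowest were Eef1d (-0.62) and Nap1l1 (-0.34), followed by Eef1b2 (-0.22) and Eif3h (-0.19). The single higher one was Eef2, on both probe sets described above. The proteins that bind snoRNAs or assemble them into particles had 7 measured members of 16, with 2 higher, 5 lower and a median of -0.33 (-0.21 with quantile normalization, -0.25 with loess). Among them were Nop10 (-0.43), the chaperone Nolc1 (-0.40), Ncl (-0.38) and the methyltransferase Fbl (-0.33, 10293.5 to 8174.6), while Nop56 was at 0.15.

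Transcripts described elsewhere as substrates of nonsense-mediated decay had 15 measured members of 21, 12 higher and 3 lower. The median was 0.52, the value of Smg5, which is also listed among the decay factors below. Past 2-fold were 5 of the higher ones and none of the lower, beside 5.26% and 4.22% of all measured genes. Those 5 were Gadd45a (2.25), Trib3 (2.11), Gadd45b (2.02), Ppp1r15a (1.55) and Atf3 (1.01). All 5 are known stress-response genes that are also switched on by transcription, so the list does not separate decay from synthesis. The lower members were Sat1 (-0.68), Tbl2 (-0.37) and Oaz1 (-0.25). Factors of the decay pathway itself had 9 measured members of 24, 6 higher and 3 lower, none past 2-fold, with a median of 0.35. The decapping cofactor Dcp1a (0.74), Upf2 (0.68), the exon junction protein gene Casc3 (0.65) and Smg5 (0.52) had the largest changes, and Gspt1, a translation termination factor, was lower (-0.22).

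Gas5 was named for its accumulation in arrested cells, so the growth arrest-specific genes were read beside it. Of 11 listed, 8 were measured, 5 higher and 3 lower, with a median of 0.16. Above the control floor it was -0.17 over 6 genes, and Gas1 was 2.75-fold lower (-1.46), Gas2 lower (-0.57), Pdgfra lower (-0.43) and Dcn higher (0.35). Gas5 and Gas1 thus went in opposite directions on the same arrays. Of the other marker lists, 9 of 12 fibroblast genes were lower (median -0.22, with S100a4 at -0.84, Pdgfrb at 0.51, Pdgfra at -0.43 and Col1a2 at -0.41). Among leukocyte genes 3 of 4 measured were higher (median 0.16): Lyz2 (0.38), Cd3e (0.24) and Cd14 (0.088), while the pan-leukocyte gene Ptprc was lower (-0.96).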

How the data were processed

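Total RNA of 4 samples was measured, 1 array per condition and array type. Each deposited table gives a linear intensity for every probe set and array; software, scaling and genome build are not stated by any label or header used. Since the 2% trimmed means of the 2 arrays of a type lay within 5% of each other, the deposited intensities were used unscaled. Control probe sets (61 per type) were left out. Symbols came from the platform annotation, updated through Entrez identifiers: 5541 probe sets of the first type and 2001 of the MB type had 1 symbol, 197 and 27 several, 785 and 4506 none.

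The change is log2 of withdrawn over tetracycline intensity, with no pseudocount. A gene took the median over its measured probe sets. The number of arrays limits the precision, and no p-value was computed. Named were all host probe sets, Eif2ak2, the 3 probe sets nearest to each host, and up to 4 genes per list with the largest changes above the control floor. Other genes were named after their values were seen. The members and the 11 gene lists were chosen with earlier results of these data known, and the motifs other than the pyrimidine start after the sequences were read. The neighbouring genes, and the split of coding hosts, were also chosen later. Counting was tested on simulated arrays, with the same noise at every level and changes planted only well above the main floor. Levels as low as that of Snhg11 were therefore not covered. The work used Python 3.11.15 with pandas 2.3.3, numpy 2.4.6, statsmodels 0.14.6 (loess), scipy 1.17.1 and matplotlib 3.10.9.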

Additional observations from a re-analysis of the deposited data

How the results depend on the processing

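Under 5 alternatives (2% trimmed mean, median ratio, quantile normalization, loess with a span of 0.4, a pseudocount of 100) each of the 6 host probe sets kept its sign and moved by less than the spread of its neighbours. A pseudocount added to both readings cannot change a sign. The trimmed means were nearly equal from the outset, so that rescaling could hardly move a value. Snhg1 ranged from 1.59 to 1.68, Snhg6 from 1.01 to 1.07, Snhg11 from 0.79 to 1.01, the Gas5 probe sets from 0.55 to 0.69 and from 0.61 to 0.82, and Snhg9 from -0.10 to -0.050. On the first type 2 host probe sets were past 2-fold with the median ratio, where Snhg11 reached 1.01, and 2 were past a 1.5-fold limit. On the MB type 3 were past 1.5-fold and 0 past 3-fold. Main floors multiplied by 0.5 or 2, and the control floor, could not change either count, because all 6 host probe sets lie above every one of them. The ranks beside 100 or 400 neighbours, or those nearest in tetracycline level, stayed within the binomial interval of the main share. The 100, 200 and 400 neighbours are nested sets, so this is no independent check. The interval does not measure the error of a host reading. Of the list medians, that of decay factors was -0.12 on the MB type alone (3 genes), and that of growth arrest-specific genes was -0.17 above the control floor and -0.10 on the first type alone; the cause was not tested. Smaller medians turned with loess: annotated coding hosts (0.027), those with named snoRNA genes (0.050) and coding hosts outside the ribosomal protein genes (0.019). With 6 pyrimidines required after the C, 0 of 5 starts matched; within 5 bases of the annotated start, 2 did, beside 18.3% of all windows. No paired analysis was possible because each condition has 1 array per type and no test was run. With 1 array per condition, small changes such as that of Snhg9 cannot be told from noise.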
